A study of Homo sapiens with 24 samples.

Results

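How the transcriptional response of UCSD-AML1 cells to decitabine (DAC) changed between a 96 h and a 144 h harvest is described here from 12 RNA-seq libraries, of 24 in the series. They were chosen by line alone, and form 4 groups of 3: DAC-treated at 144 h, untreated at 144 h, DAC-treated at 96 h and untreated at 96 h. UCSD-AML1 is a human acute myeloid leukaemia cell line with a chromosomal rearrangement that activates MECOM, which encodes the transcription factor EVI1. All cultures grew in RPMI with 20% FCS and 5 ng/ml GM-CSF. Treated cells received 100 nM DAC on each of 4 consecutive days in freshly changed medium, whichever harvest followed. The sources used here do not say what the cells went through between 96 h and 144 h. The libraries are paired-end, stranded and made from total RNA after depletion of ribosomal RNA. They are labelled technical triplicates, so p-values measure only the spread between these libraries. The other 12 libraries, of the line ELF-153 in the same 4 groups, were used for one comparison at the end.

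DAC, a deoxycytidine analogue, is built into new DNA, where it captures the methyltransferases, and dividing cells then lose cytosine methylation. Cells deprived of amino acids or with unfolded proteins phosphorylate the initiation factor eIF2α, which favours translation of the transcription factor ATF4. ATF4, with C/EBP partners, induces aminoacyl-tRNA synthetases, amino acid transporters and the glutathione-degrading enzyme CHAC1. In the sterol pathway the transcription factor SREBP2, encoded by SREBF2, induces genes of cholesterol synthesis and uptake when membrane sterol is low. Interferon-stimulated genes carry elements bound by STAT and IRF factors, and are induced when cells sense foreign RNA or RNA of derepressed repeats.

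The promoters below belong to 1 gene of the sterol and 1 of the interferon pathway and were chosen, after values were seen, to show the elements named above where a search found them. Neither was called for the time difference over 12 libraries; SREBF2 was called over 24 libraries and RSAD2 in the comparison of lines. The letters come from RefSeq promoters (GRCh38.p14), are given 5′ to 3′ on the gene's strand and cover the 250 bases before the start. Capitals mark the match. SREBF2 lies at chr22:41832855-41833104 on the plus strand, and RSAD2, for 1 of its 2 listed starts, at chr2:6877527-6877776 on the plus strand.
SREBF2: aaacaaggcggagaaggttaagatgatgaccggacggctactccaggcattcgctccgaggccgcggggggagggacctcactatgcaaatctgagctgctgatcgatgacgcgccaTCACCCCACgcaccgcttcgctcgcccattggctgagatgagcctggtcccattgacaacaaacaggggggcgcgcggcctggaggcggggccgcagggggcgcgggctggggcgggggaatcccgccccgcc
RSAD2: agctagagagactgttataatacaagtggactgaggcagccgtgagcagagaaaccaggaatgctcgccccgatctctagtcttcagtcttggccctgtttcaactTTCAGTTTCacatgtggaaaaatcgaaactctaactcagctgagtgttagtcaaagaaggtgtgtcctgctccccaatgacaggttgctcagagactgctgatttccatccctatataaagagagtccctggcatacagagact

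Both strands were searched from 250 bases before to 50 after each start, in 35116 promoters of 27305 genes. The ATF4 and C/EBP element TGATGNAA was found in 1217 genes (4.46%), and in 10 of the 30 ATF4-list members that have a promoter there, of 35 tested. The sterol element TCACNCCAC was found in 379 genes (1.39%), and in SREBF2 alone of 27 cholesterol genes with a promoter there. The interferon-stimulated response element GAAANNGAA was found in 2693 genes (9.86%), and in 37 of 49 interferon-stimulated genes with a promoter there, RSAD2 on the other strand. These motifs can overlap others that were not searched. A match describes the letters in the window only.

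Values are reads divided by a size factor of the library, called scaled reads here. The authors scaled the tables of the 2 harvests separately, so a level is never set across harvests: the comparison is the treated minus untreated log2 difference at 144 h minus that at 96 h, called the time difference. It does not say whether the treated or the untreated cells moved. ACTB, which encodes β-actin and has many close copies, held 180.1 to 604.0 scaled reads per library; how reads shared between copies or transcripts were counted was not tested. Levels of different genes are therefore not compared, and genes with close copies are uncertain. The libraries held 15.1 to 28.28 Mreads (mega-reads). Replicate 3 at 144 h stood apart in both arms, with 15.17 Mreads treated and 15.1 Mreads untreated, against 21.42 to 25.87 Mreads in the other 4 libraries of that harvest. Mitochondrial ribosomal RNA took 38.7% of reads in its treated library, against 58.4% and 56.4% in replicates 1 and 2. In its untreated library it took 44.5%, against 51.6% and 52.1%. At 96 h that share was 61.7 to 63.8% in treated and 49.3 to 51.3% in untreated libraries. Treated and untreated shares thus stood apart at 96 h and overlapped at 144 h, there through replicate 3 alone. In replicates 1 and 2 at 144 h the treated shares lay above the untreated ones, as at 96 h. The chi-square per degree of freedom was 103.92 and 130.87 between treated replicate 3 at 144 h and the other treated libraries there, and 7.62 between those 2. It was 74.95 and 82.4 for untreated replicate 3 at 144 h and 4.1 between the others there, and 31.26 to 57.04 among the treated and 3.7 to 8.47 among the untreated libraries at 96 h. This chi-square counted the reads of mitochondrial ribosomal RNA too, so it is not separate from the share given above. Counts are therefore also given without both replicates 3 at 144 h. MECOM, KIT, CD34 and GATA2, which mark this line or immature myeloid cells, were detected in all 12 libraries.

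Most genes called at one harvest were called in the same direction at the other. Of 17422 genes tested with limma (Benjamini-Hochberg adjusted p below 0.05), 3825 were higher in treated cells at 144 h (22.0%) and 5620 lower (32.3%), against 3651 higher (21.0%) and 3933 lower (22.6%) at 96 h. The 2813 genes higher at both harvests were 73.5% of those higher at 144 h and 77.0% of those higher at 96 h. The 3399 genes lower at both were 60.5% of those lower at 144 h and 86.4% of those lower at 96 h. In bulk RNA, fewer cells of a type and less RNA per cell cannot be told apart in any of these values. The split depended on the scaling: with TMM factors in limma 4724 genes were higher and 4623 lower at 144 h, and 3817 higher and 3647 lower at 96 h.

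The time difference itself passed the test for 0 genes upward and 2 genes downward (0.0115% of those tested), CHAC1 and SLC7A11. edgeR's quasi-likelihood test with TMM on the recovered reads also called 0 and 2, and DESeq2 called 39 and 97. With the replicate number as a block within each harvest limma called 22 higher and 255 lower. At an unadjusted p below 0.05, 520 genes were higher (2.98%) and 1603 lower (9.2%). The median over all genes was −0.14 log2 units, and TMM scaling moved it by 0.16 to 0.01; lists below are therefore given relative to the median of all genes. The standard error of a time difference had a median of 0.44 log2 units and the 95% interval a median half-width of 0.94. For 2134 (34.4%) of the 6212 genes called in the same direction at both harvests, and for 4605 (26.4%) of all genes, that interval lay within 1 log2 unit (2-fold) of no difference. For the others a 2-fold difference between the harvests was within reach of the interval, so a missed call does not show an equal response.

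**Figure D1:**
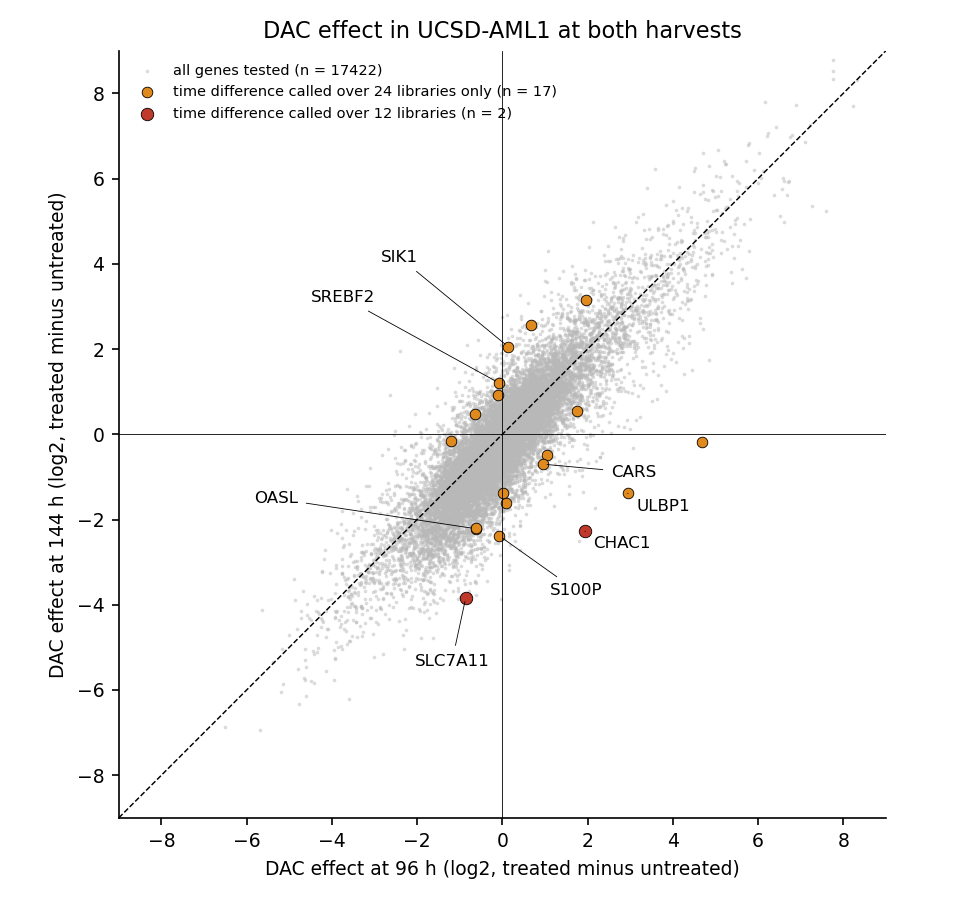
DAC effect at 144 h (vertical axis, log2, treated minus untreated) against that at 96 h (horizontal axis, same scale) for 17422 genes, with the diagonal of equal effects. Red points are the 2 genes called over 12 libraries, CHAC1 and SLC7A11, both under the diagonal; orange points are the 17 genes called only when all 24 libraries shared 1 estimate of the spread.

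The plot of the effects at the 2 harvests shows the cloud of genes along the diagonal, with CHAC1 in the quadrant of opposite effects. In all, 13 genes were called in opposite directions at the 2 harvests. AC145207.5, a lincRNA, and C8orf33 were higher at 144 h and lower at 96 h. The 11 others were lower at 144 h and higher at 96 h: AL035681.1, CARS, CCDC28A, CHAC1, GOT1, LINC01545, MTRNR2L2, NCOA7, PAN3-AS1, RSAD2 and XXYLT1-AS2. Among these 13, CHAC1 alone also passed the test of the time difference over 12 libraries.

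CHAC1, the γ-glutamylcyclotransferase that degrades glutathione, changed its direction. It held 37.8, 37.6 and 46.2 scaled reads in treated cells at 144 h, against 189.2, 224.3 and 186.1 in untreated cells, and 69.8, 84.3 and 41.8 in treated cells at 96 h, against 14.7, 16.5 and 15.8 in untreated cells. All treated libraries lay below the untreated ones at 144 h and above them at 96 h, with no overlap at either harvest. CHAC1 thus fell by 2.28 ± 0.26 (log2, SE) under DAC at 144 h and rose by 1.94 ± 0.26 at 96 h. Its time difference was −4.21 ± 0.36 (limma, adjusted p = 0.000223), and −4.36 without both replicates 3 at 144 h (adjusted p = 4.87e-05).

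SLC7A11, the light chain of the transporter that brings in cystine in exchange for glutamate, was the other gene called. It held 156.3, 137.3 and 103.6 scaled reads in treated cells at 144 h, against 2283.1, 2449.5 and 1168.9 in untreated cells. The 96 h libraries held 156.4, 154.0 and 222.4 when treated and 276.8, 363.0 and 319.3 when untreated. Treated libraries were lower at both harvests without overlap, and the gap was wider at 144 h. The effect was −3.83 ± 0.27 at 144 h and −0.86 ± 0.27 at 96 h (log2, SE), and the time difference −2.97 ± 0.38 (limma, adjusted p = 0.0132). The call for SLC7A11 was lost when any 1 of 6 libraries was left out: treated replicate 2 at 144 h (adjusted p = 0.0587), untreated replicate 1 at 144 h (0.0716), treated replicate 2 (0.0631) or 3 (0.0537) at 96 h, or untreated replicate 1 (0.0908) or 3 (0.0778) at 96 h. Without both replicates 3 at 144 h it was −3.15 (adjusted p = 1.69e-05).

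**Figure D2:**
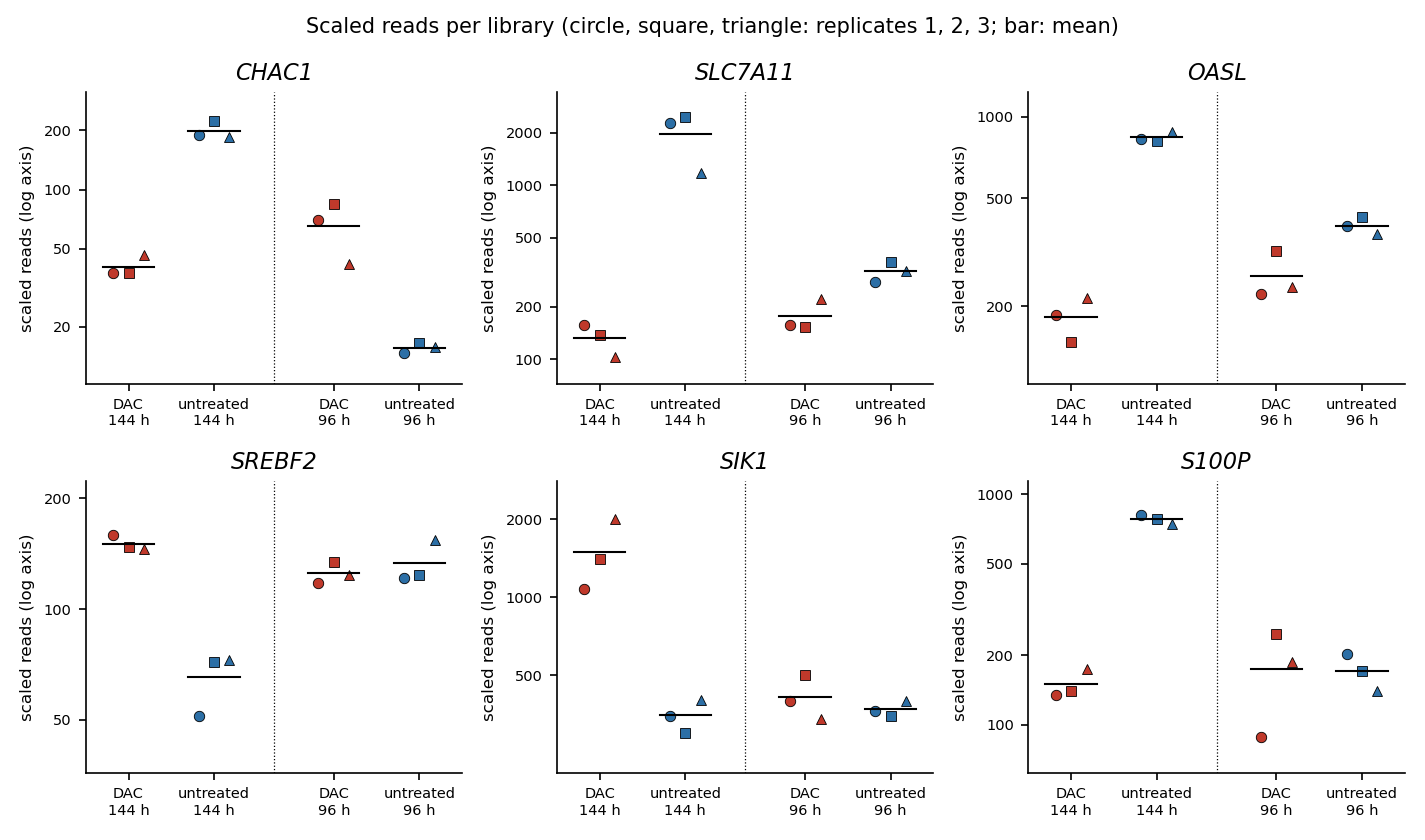
Scaled reads per library (log axis) of 6 genes, treated left of untreated within each harvest; circles, squares and triangles are replicates 1, 2 and 3, and bars are means of 3. CHAC1 lies below its untreated libraries at 144 h and above them at 96 h, and SREBF2, SIK1 and S100P separate by treatment at 144 h only; heights compare within a harvest, not across the dotted line.

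CHAC1 and SLC7A11 both belong to a list of 41 ATF4 stress and amino acid genes, of which 35 were tested. In treated cells 2 members were higher and 20 lower at 144 h, and 7 higher and 13 lower at 96 h. The shares over all genes were 22.0% higher and 32.3% lower at 144 h, and 21.0% and 22.6% at 96 h. The median time difference of the list was 0.78 log2 units below that of all genes (−0.779), and 28 of 35 members lay under the median of all genes. At an unadjusted p below 0.05, 17 members had a lower and 1 a higher time difference, against 9.2% and 2.98% of all genes. The exception was JDP2, a repressor of AP-1 (0.96 ± 0.37, limma, adjusted p = 0.33). ATF4 mRNA itself had a time difference of −0.16 ± 0.22 (limma, adjusted p = 0.793), and levels of 822.5, 718.1 and 789.2 in treated and 821.5, 1012.4 and 1011.5 in untreated cells at 144 h, and of 777.1, 1040.8 and 842.1 in treated and 928.0, 975.2 and 975.1 in untreated cells at 96 h. Its treated and untreated libraries overlapped at 96 h, and at 144 h by a margin of 1 scaled read.

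With all 24 libraries in the fit, which takes 1 spread per gene from both lines together, 7 genes had a higher time difference (0.0402%) and 12 a lower one (0.0689%). Whether the lines share a spread was not tested, and for MECOM the adjusted p went up (limma, 0.404 over 12 and 0.792 over 24 libraries). The genes of this paragraph and the following ones, other than the fixed set named below, were chosen after their values were seen. In that fit 4 ATF4-list members were called, all lower: CHAC1, SLC7A11, ULBP1 and WARS. The 24-library calls also held CARS, the cysteinyl-tRNA synthetase, and MTHFD2P7, a processed pseudogene of the mitochondrial folate enzyme MTHFD2. Without both replicates 3 at 144 h, 77 genes were higher (0.442%) and 741 lower (4.25%), among them all 19 of the 24-library fit. That fit called 13 ATF4-list members lower and 0 higher.

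Among the synthetases that charge tRNA, WARS (tryptophan) held 68.1, 83.1 and 65.3 scaled reads in treated and 188.3, 185.0 and 188.5 in untreated cells at 144 h, and 98.4, 71.9 and 68.0 in treated and 65.0, 78.8 and 89.9 in untreated cells at 96 h. The groups were apart at 144 h and overlapped at 96 h. Its time difference was −1.39 ± 0.29 (limma, adjusted p = 0.128 over 12 and 0.0181 over 24 libraries). CARS held 84.0, 92.7 and 98.0 in treated and 137.9, 150.5 and 159.8 in untreated cells at 144 h, and 125.9, 127.0 and 117.5 in treated and 66.1, 46.7 and 82.0 in untreated cells at 96 h. CARS was lower in treated cells at 144 h and higher at 96 h, without overlap at either harvest, with a time difference of −1.65 ± 0.29 (limma, adjusted p = 0.0857 over 12 and 0.0088 over 24 libraries). AARS, the alanyl-tRNA synthetase, had an effect of −1.15 ± 0.14 at 144 h and −0.22 ± 0.14 at 96 h (limma, time difference −0.92, adjusted p = 0.144 over 12 libraries, and 0.0109 without both replicates 3 at 144 h).

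ULBP1, a stress ligand of the natural killer cell receptor NKG2D, held 18.5, 21.9 and 21.4 scaled reads in treated and 64.5, 75.7 and 34.6 in untreated cells at 144 h, and 23.6, 31.5 and 25.3 in treated and 5.24, 6.42 and 0 in untreated cells at 96 h. Treated libraries lay under the untreated ones at 144 h and over them at 96 h. The 96 h effect passed the test (2.94 ± 0.60) and the 144 h effect did not (−1.39 ± 0.60, limma, adjusted p = 0.0634), and the time difference was −4.33 ± 0.85 (adjusted p = 0.123 over 12 and 0.012 over 24 libraries). The untreated ULBP1 libraries at 96 h held 12 reads in all, and a pseudocount of 8 gave −2.75. CBS, which makes cystathionine from homocysteine, had an effect of −2.72 ± 0.39 at 144 h and 0.41 ± 0.39 at 96 h (limma, time difference −3.12, adjusted p = 0.0857, and 0.00546 without both replicates 3 at 144 h). TRIB3, a pseudokinase induced by ATF4, fell at both harvests, by 3.12 ± 0.20 at 144 h and 1.80 ± 0.20 at 96 h. SESN2, a stress-induced regulator of mTORC1, rose at 96 h by 0.84 ± 0.20 and had −0.15 ± 0.20 at 144 h (limma, adjusted p = 0.565 there).

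**Figure D3:**
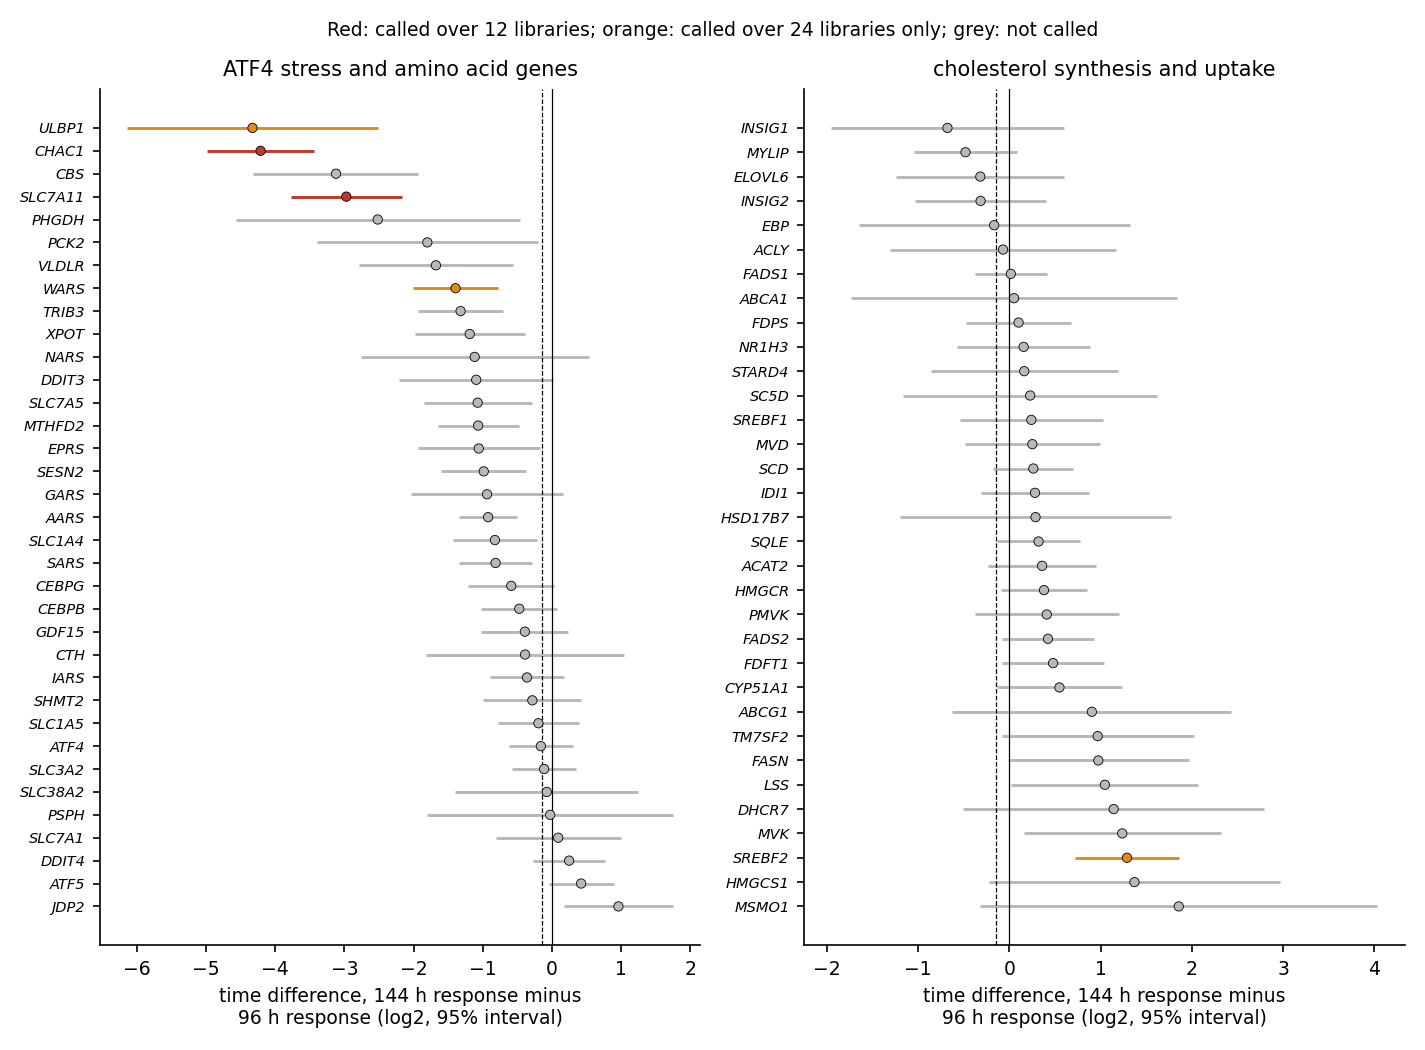
Time difference (log2) with its 95% interval for each of 35 tested ATF4 stress and amino acid genes (left) and for 33 of 35 tested cholesterol genes (right), with 0 as a solid and the median of all genes as a dashed line. In the left panel 28 of 35 members lie left of the dashed line, and in the right panel 28 of 33 lie right of it; red marks calls over 12 libraries and orange calls over 24 libraries only.

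Most cholesterol genes had a time difference above the median of all genes, but few passed any test. Of 38 listed, 35 were tested, and in treated cells 12 were higher and 6 lower at 144 h, against 3 higher and 9 lower at 96 h. All genes had 22.0% higher and 32.3% lower at 144 h, and 21.0% and 22.6% at 96 h. The median time difference was 0.46 log2 units above that of all genes (0.464), and 30 of 35 members lay above the median of all genes. At an unadjusted p below 0.05, 5 were higher and 0 lower, against 2.98% and 9.2% of all genes. No member passed over 12 libraries, and 3 passed over 24, all higher and SREBF2 among them. Without both replicates 3 at 144 h, 4 members were called higher and 0 lower, SREBF2 among the higher, against 0.442% and 4.25% of all genes.

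SREBF2, the transcription factor of the pathway, held 158.8, 147.0 and 145.2 scaled reads in treated and 51.3, 71.9 and 72.8 in untreated cells at 144 h, and 118.0, 133.8 and 123.4 in treated and 121.6, 123.7 and 153.7 in untreated cells at 96 h. The groups stood apart at 144 h and overlapped at 96 h. SREBF2 rose by 1.21 ± 0.19 at 144 h and had −0.08 ± 0.19 at 96 h, a time difference of 1.29 ± 0.27 (limma, adjusted p = 0.128 over 12 and 0.0454 over 24 libraries).

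Heat shock and unfolded protein genes include chaperones of the cytosol and the endoplasmic reticulum. Of 29 heat shock and unfolded protein genes tested, 24 lay above the median of all genes, and 0 passed over 12 or 24 libraries. At an unadjusted p below 0.05, 5 were higher and 0 lower, against 2.98% and 9.2% of all genes. SDF2L1, a co-chaperone of the endoplasmic reticulum, held 338.6, 299.2 and 468.4 scaled reads in treated and 252.0, 270.4 and 301.8 in untreated cells at 144 h, and 210.5, 283.2 and 238.9 in treated and 542.1, 521.5 and 419.4 in untreated cells at 96 h. Its groups overlapped at 144 h and did not at 96 h, with a time difference of 1.42 ± 0.28 (limma, adjusted p = 0.123). Without both replicates 3 at 144 h, where 0.442% of all genes were called higher, SDF2L1, CALR, HSPA5 and BAG3 were among them (limma, adjusted p = 0.00676, 0.0248, 0.0306 and 0.0338). Untreated replicate 3 at 144 h held 6189.5 scaled reads of HSPA5, the main chaperone of that compartment, against 2528.9 and 2520.5 in replicates 1 and 2.

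Interferon-stimulated genes had more members lower in treated cells at 144 h, as did all genes. Of 74 listed, 67 were tested. In treated cells 5 were higher and 41 lower at 144 h, against 8 higher and 26 lower at 96 h. Among all genes 22.0% were higher and 32.3% lower at 144 h, and 21.0% and 22.6% at 96 h. The median time difference of the list lay 0.39 log2 units under that of all genes (−0.388). At an unadjusted p below 0.05, 25 members were lower and 1 higher, IRF1, against 9.2% and 2.98% of all genes. No member passed over 12 libraries, and OASL alone over 24. Without both replicates 3 at 144 h, 16 members were lower and 0 higher, against 4.25% and 0.442% of all genes.

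OASL, an antiviral protein related to the oligoadenylate synthetases, held 185.7, 147.8 and 213.9 scaled reads in treated and 830.3, 814.0 and 881.5 in untreated cells at 144 h, and 221.3, 319.2 and 236.0 in treated and 394.3, 428.0 and 367.4 in untreated cells at 96 h. Treated libraries were lower at both harvests without overlap, with a wider gap at 144 h. Its time difference was −1.59 ± 0.26 (limma, adjusted p = 0.0832 over 12 and 0.0403 over 24 libraries). RSAD2, which encodes viperin, an enzyme that makes a chain-terminating nucleotide, held 2250.8, 2085.3 and 2171.8 in treated and 3503.3, 3288.4 and 2331.9 in untreated cells at 144 h, and 2254.4, 2893.2 and 3108.1 in treated and 1904.3, 1862.4 and 1676.7 in untreated cells at 96 h. RSAD2 fell at 144 h by 0.47 ± 0.17 and rose at 96 h by 0.59 ± 0.17, without overlap at either (limma, time difference −1.06 ± 0.24, adjusted p = 0.188). For 4 others, IFIT1, TRIM22, RTP4 and APOL6, the effect at 144 h was −1.70, −1.75, −1.54 and −1.80 and at 96 h −0.22, −0.33, −0.43 and −0.54, the last called at both harvests and the first 3 at 144 h only. MX1 and ISG15, classical members, had time differences of −0.20 ± 0.18 and −0.34 ± 0.27 (limma, adjusted p = 0.679 and 0.635).

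AP-1 and immediate early genes, many of which growth signals induce within minutes, had 21 members higher and 4 lower at 144 h and 18 higher and 6 lower at 96 h, of 32 tested. The shares over all genes were 22.0% and 32.3% at 144 h, and 21.0% and 22.6% at 96 h. The median time difference of the list was 0.39 log2 units above that of all genes (0.39). At an unadjusted p below 0.05, 9 members were higher and 2 lower, against 2.98% and 9.2% of all genes. Leaving out both replicates 3 at 144 h, 4 members were called higher, FOS, NR4A1, NR4A3 and EGR1, and SPRED1, an inhibitor of RAS signalling, lower. Of all genes 0.442% were higher and 4.25% lower in that fit. NR4A1, an orphan nuclear receptor, held 115.9, 140.8 and 158.7 scaled reads in treated and 8.84, 4.79 and 21.5 in untreated cells at 144 h, and 50.2, 58.4 and 34.0 in treated and 15.7, 18.3 and 19.7 in untreated cells at 96 h. Treated libraries were higher at both harvests without overlap (3.67 ± 0.40 at 144 h and 1.33 ± 0.40 at 96 h, limma, time difference 2.34 ± 0.57, adjusted p = 0.188).

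SIK1, a kinase that restrains CREB coactivators, was among the genes called higher over 24 libraries. It held 1073.7, 1408.3 and 1998.4 scaled reads in treated and 348.4, 300.1 and 402.0 in untreated cells at 144 h, and 398.4, 499.1 and 338.0 in treated and 364.9, 346.5 and 396.5 in untreated cells at 96 h. The groups stood apart at 144 h and overlapped at 96 h. The time difference of SIK1 was 1.91 ± 0.31 (limma, adjusted p = 0.0832 over 12 and 0.0181 over 24 libraries).

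Other 24-library calls fell outside the lists above. S100P, a calcium-binding protein, held 134.4, 140.8 and 174.5 scaled reads in treated and 812.6, 784.2 and 741.9 in untreated cells at 144 h, and 88.5, 247.3 and 187.5 in treated and 202.4, 170.5 and 139.5 in untreated cells at 96 h, apart at 144 h and overlapping at 96 h (time difference −2.30 ± 0.41; limma, adjusted p = 0.0857 over 12 and 0.0181 over 24 libraries). KCNE3, a potassium channel subunit, had an effect of −1.62 ± 0.20 at 144 h and 0.08 ± 0.20 at 96 h, and KIF9, a kinesin, 2.57 ± 0.26 at 144 h and 0.68 ± 0.26 at 96 h. C12orf76 rose less at 144 h (0.55 ± 0.16) than at 96 h (1.74 ± 0.16), and AL359915.2, an antisense RNA, more (3.15 ± 0.16, against 1.95 ± 0.16). UNC5B-AS1, an antisense RNA, held 1.68, 0 and 3.38 in treated and 0, 1.92 and 4.77 in untreated cells at 144 h, and 21.6, 29.2 and 23.3 in treated cells at 96 h, where all 3 untreated libraries were at 0. It passed the filter on low values only through its treated libraries at 96 h, so it had to be higher there. Its time difference ranged from −8.04 to −2.09 over the alternatives, so this call describes the gene and does not test it. AC145207.5, higher, and AL035681.1, lower, were also among the 19.

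Cell cycle genes were lower in treated cells at both harvests. Of 46 replication genes tested, 0 were higher and 43 lower at 144 h, and 0 higher and 44 lower at 96 h; their summed level was 2482.7 to 2598.5 scaled reads in treated and 19451.4 to 20201.3 in untreated cells at 144 h, and 3112.0 to 3456.3 in treated and 26161.5 to 28502.1 in untreated cells at 96 h. Of 63 mitosis genes, 0 were higher and 59 lower at each harvest. Among all genes 22.0% were higher and 32.3% lower at 144 h, and 21.0% and 22.6% at 96 h. The median time differences were 0.38 log2 units above (replication) and 0.08 under (mitosis, −0.084) that of all genes. Once both replicates 3 at 144 h were left out, 5 mitosis genes were called lower, against 4.25% of all genes. Among the 5 were KIF18A, a kinesin that limits chromosome movement, NDC80 of the kinetochore and TOP2A, topoisomerase II. KIF18A held 6.72, 9.62 and 3.38 scaled reads in treated and 696.8, 823.5 and 256.5 in untreated cells at 144 h, and 54.1, 45.0 and 116.6 in treated and 749.8, 897.3 and 798.6 in untreated cells at 96 h. Its effect was −6.22 ± 0.44 at 144 h and −3.61 ± 0.44 at 96 h (limma, time difference −2.61, adjusted p = 0.188). Untreated replicate 3 at 144 h was the lowest of its group for KIF18A, NDC80 and TOP2A.

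Of 46 megakaryocyte and platelet genes tested, 37 were higher and 1 lower in treated cells at 144 h, against 38 and 1 at 96 h, and of 44 erythroid genes 22 higher and 8 lower, against 23 and 7. Of 59 matched erythroid genes 19 had no read in the untreated libraries at 144 h and 16 at 96 h, against 5 and 3 in treated ones. Members that passed the filter only through their treated libraries had to be higher there, so the counts of these lists describe them and do not test them. Neither the megakaryocyte nor the erythroid list had a member called for the time difference over 12 or 24 libraries. PTGS1, the prostaglandin synthase of platelets, rose by 1.75 ± 0.12 at 144 h and 2.23 ± 0.12 at 96 h, with a 95% interval of the time difference from −0.84 to −0.12. Without both replicates 3 at 144 h, 2 members of the megakaryocyte and platelet list were called higher and 2 lower, THBS1 among the higher and MMRN1 and MMRN2 as the lower. Of all genes 0.442% were higher and 4.25% lower in that fit, so the count of lower members is near that share. MMRN2, an endothelial matrix gene that the list also holds, was the 1 member called lower in treated cells at each harvest (−1.52 ± 0.19 at 144 h and −0.62 ± 0.19 at 96 h). Of 38 stem cell and progenitor genes, 7 were higher and 14 lower at 144 h, against 9 and 8 at 96 h. Over all genes 22.0% were higher and 32.3% lower at 144 h, and 21.0% and 22.6% at 96 h, a similar split. The median time difference of the stem cell and progenitor list was 0.30 log2 units under that of all genes (−0.295).

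Many cancer-testis and germ-cell genes are kept silent by methylation in other cells. Of 62 listed cancer-testis antigens 11 passed the filter on low values, 8 higher and 2 lower in treated cells at 144 h, against 8 and 1 at 96 h. MAGEB2, one of them, held 122.7, 96.2 and 91.2 scaled reads in treated and 0.884, 0.959 and 0 in untreated cells at 144 h, and 79.7, 109.0 and 96.2 in treated and 4.19, 0.917 and 1.58 in untreated cells at 96 h. Of 68 germ-cell and meiosis genes 15 passed, 7 higher and 4 lower at 144 h, against 8 and 1 at 96 h. The median time difference lay 0.41 log2 units above that of all genes for the cancer-testis antigens (0.409) and under it for the germ-cell genes (−0.516), with 0 called by limma in either list over 12 or 24 libraries, and 0 higher and 1 lower in each at an unadjusted p below 0.05. Members that passed only through their treated libraries had to be higher there, so these counts describe the lists and do not test them. Of 29 imprinted genes 12 were higher and 6 lower at 144 h, against 14 and 2 at 96 h. The shares over all genes were 22.0% and 32.3% at 144 h, and 21.0% and 22.6% at 96 h.

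A fixed set of regulators was read for every comparison. CD34, a surface marker of progenitors, held 129.4, 140.0 and 141.9 scaled reads in treated and 276.8, 272.3 and 286.3 in untreated cells at 144 h, and 300.0, 266.4 and 268.1 in treated and 358.6, 241.1 and 262.5 in untreated cells at 96 h. It fell at 144 h by 1.02 ± 0.17, where the groups stood apart, and had −0.03 ± 0.17 at 96 h, where they overlapped. The time difference of CD34 was −0.99 ± 0.24 (limma, adjusted p = 0.188, and 0.0311 without both replicates 3 at 144 h). MECOM had −0.40 ± 0.18 (adjusted p = 0.404), and fell by 1.52 ± 0.13 at 144 h and by 1.12 ± 0.13 at 96 h. KIT, the stem cell factor receptor, had −0.88 ± 0.46 (limma, adjusted p = 0.458), and MYC 0.59 ± 0.30 (adjusted p = 0.448). For the methyltransferases the values were 0.43 ± 0.34 in DNMT1, −0.41 ± 0.32 in DNMT3A and 0.09 ± 0.50 in DNMT3B (limma, adjusted p = 0.639, 0.636 and 0.955). GATA1 and GATA2, transcription factors of the erythroid and megakaryocyte lineages, had −0.20 ± 0.31 and 0.08 ± 0.22, and the cell cycle inhibitor CDKN1A −0.54 ± 0.48 (limma, adjusted p = 0.825, 0.904 and 0.68). CDKN2B lay below the filter on low values.

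**Figure D4:**
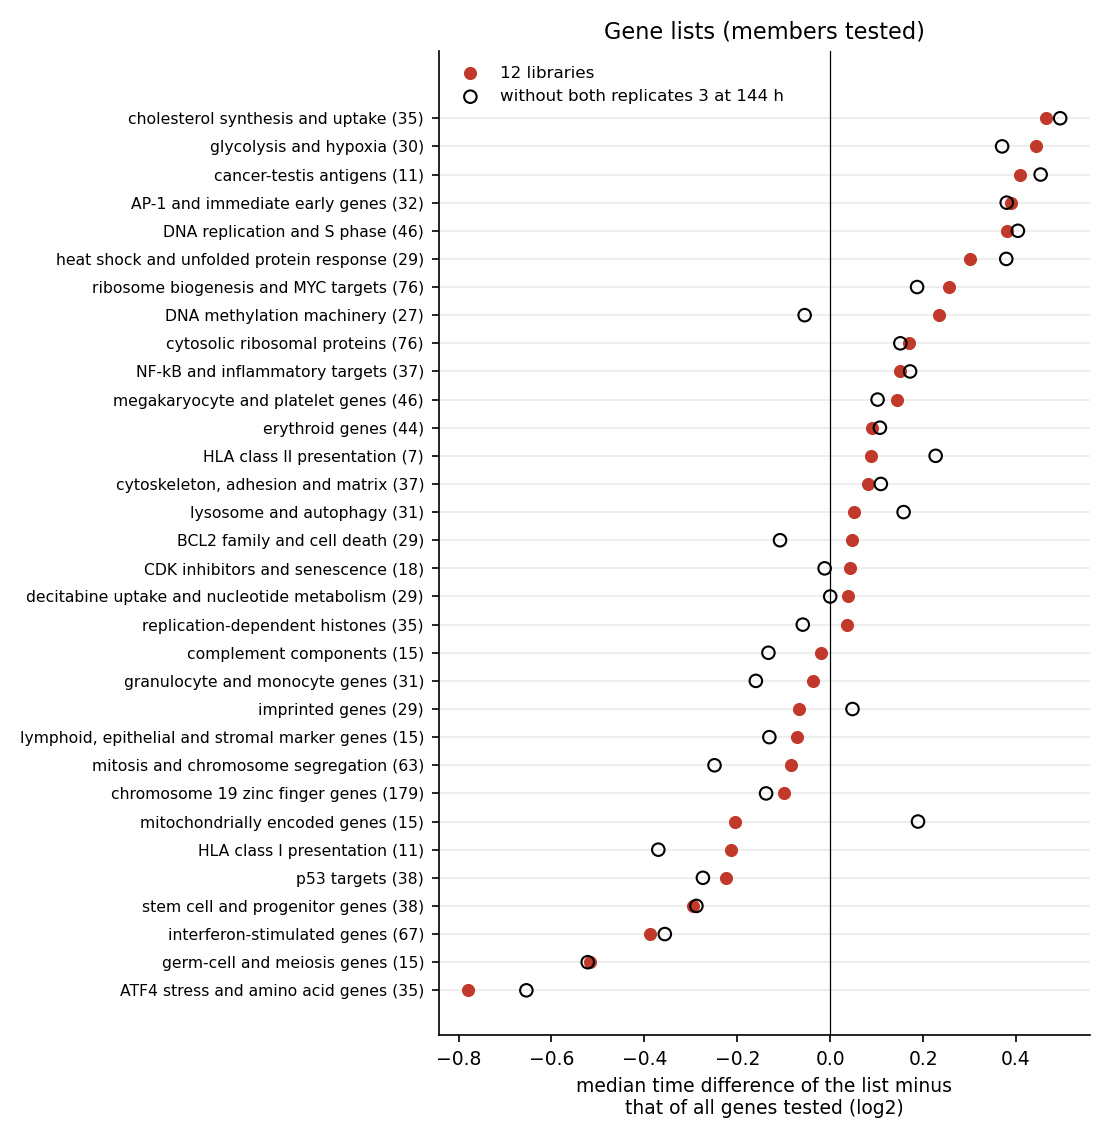
Median time difference of each of 32 gene lists minus that of all genes tested (horizontal axis, log2), over 12 libraries (filled) and without both replicates 3 at 144 h (open), with the number of members tested in brackets. ATF4 genes lie lowest at −0.779 and cholesterol genes highest at 0.464 over 12 libraries; the sign differs between the 2 sets of libraries for DNA methylation, BCL2 family, CDK inhibitor, histone, imprinted and mitochondrially encoded genes.

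Other lists gave values between these. The plot of list medians places glycolysis and hypoxia genes 0.44 log2 units above all genes (0.442) and p53 targets under them (−0.225). By biotype the median time difference minus that of all genes was 0.061 for 10934 protein-coding genes, −0.042 for 1992 long noncoding RNAs and −0.306 for 2493 processed pseudogenes. With TMM scaling the medians themselves were 0.075, −0.027 and −0.302. Of the pseudogenes 150 were higher and 1459 lower in treated cells at 144 h, against 175 and 830 at 96 h. The shares over all genes were 22.0% and 32.3% at 144 h, and 21.0% and 22.6% at 96 h. Without both replicates 3 at 144 h, 226 pseudogenes were lower and 8 higher in time difference, against 4.25% and 0.442% of all genes. Reads of a pseudogene may come from its parent gene.

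Markers of other cell types were read as a check of the label. Of 34 lymphoid, epithelial and stromal markers 15 passed the filter, and CD8A, CD8B, DCN, EPCAM, KLRD1, KRT5, LUM and MS4A1 were at 0 in all 12 libraries. The summed level of the list was 5410.2 to 6608.8 scaled reads in treated and 3809.0 to 4864.3 in untreated cells at 144 h, and 5569.3 to 6923.8 in treated and 3470.1 to 3837.9 in untreated cells at 96 h. It was higher in treated cells at both harvests, and its part in the results was not tested. Single markers were well detected, CDH5 at up to 3359.6 and CD2 at up to 1001.5 scaled reads.

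**Figure D5:**
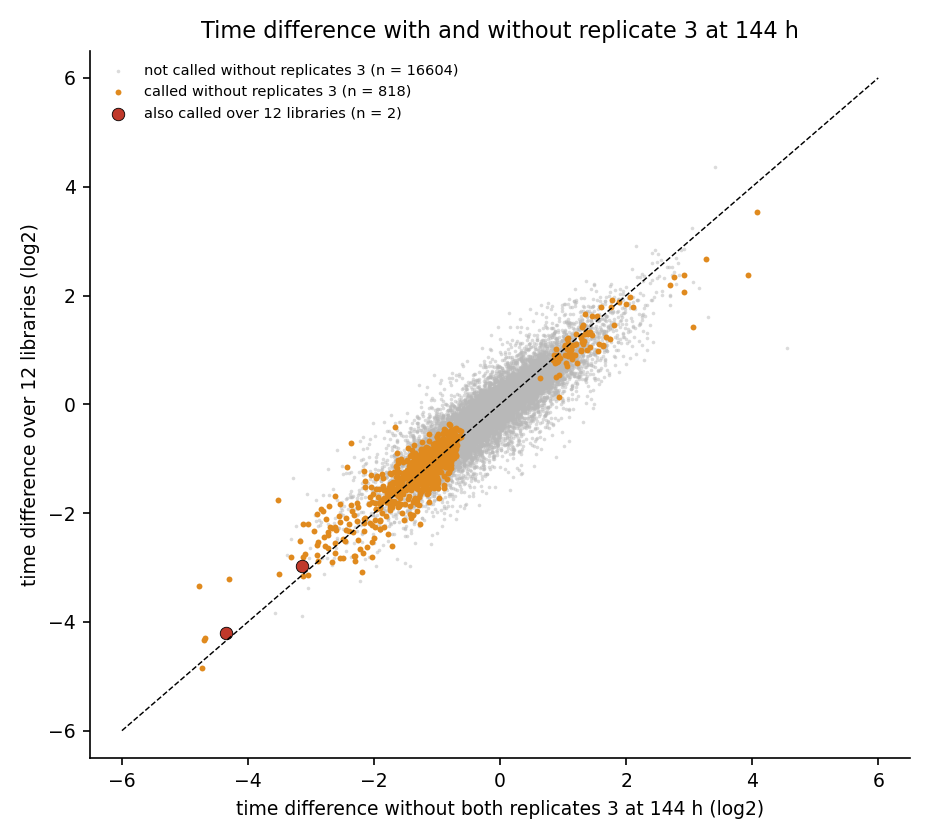
Time difference over 12 libraries (vertical axis, log2) against that without both replicates 3 at 144 h (horizontal axis, log2) for 17422 genes, with the diagonal of equal values. Orange points are the 818 genes called without replicates 3 (77 higher, 741 lower), and red points the 2 also called over 12 libraries.

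How far the count rests on replicate 3 is shown by the plot with and without it. Leaving out the untreated replicate 3 at 144 h alone gave 42 higher and 272 lower genes, while leaving out the treated one alone gave 0 and 4. Values of most genes changed little along the diagonal, and the median standard error was 0.40 without both replicates 3, against 0.44 with them. Depth and the mitochondrial ribosomal RNA share of these libraries, given above, moved with them. With that share as a covariate over all 12 libraries, limma called 0 genes higher and 4 lower. Depth was not fitted, and the part of either in the count without replicates 3 was not tested.

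The last comparison set the time difference of UCSD-AML1 against that of ELF-153, another acute myeloid leukaemia line, in 1 fit of all 24 libraries over 19881 genes. The line difference was called for 0 genes upward and 3 downward (0.0151%), CHAC1, RSAD2 and AC005394.2. For CHAC1 it was −4.52 ± 0.54 (limma, adjusted p = 0.000501), with a time difference of −4.21 ± 0.38 in UCSD-AML1 and 0.31 ± 0.38 in ELF-153. In ELF-153, CHAC1 held 64.0, 51.4 and 52.7 scaled reads in treated and 82.8, 111.3 and 96.1 in untreated cells at 144 h, and 47.4, 35.8 and 64.6 in treated and 116.5, 69.7 and 132.1 in untreated cells at 96 h. Treated libraries lay below untreated ones at both harvests there. The call held when each of the 24 libraries was left out in turn (−4.81 to −4.31, adjusted p up to 0.00221).

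RSAD2 had a line difference of −2.28 ± 0.37 (limma, adjusted p = 0.0279), with −1.06 in UCSD-AML1 and 1.23 in ELF-153. Its ELF-153 libraries held 5050.1, 7099.9 and 6479.7 scaled reads when treated and 135.7, 100.7 and 108.9 when untreated at 144 h, and 3752.6, 3940.2 and 3543.7 when treated and 128.8, 174.1 and 193.2 when untreated at 96 h. The call for RSAD2 was lost when any 1 of 15 of the 24 libraries was left out (adjusted p up to 0.0968), and the value ranged from −2.46 to −2.16. AC005394.2 had −3.61 ± 0.61 (limma, adjusted p = 0.0403), with a time difference of 0.30 ± 0.43 in UCSD-AML1, where it was not called (adjusted p = 0.859), and 3.91 ± 0.43 in ELF-153 (adjusted p = 0.00014). It lost its call without any 1 of 18 libraries (adjusted p up to 0.148). In ELF-153 all 3 untreated libraries of AC005394.2 at 144 h were at 0, so its fitted value depends on the pseudocount. SLC7A11 did not pass (−3.05 ± 0.58, limma, adjusted p = 0.0858), and its time difference in ELF-153 was 0.07 ± 0.41. Without both UCSD-AML1 replicates 3 at 144 h, 6 genes were called, all lower (0.0302%).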

How the data were processed

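Members and gene lists were chosen with earlier results of these data known. The authors' deposited values are a signal: reads per transcript divided by 1 size factor per library, scaled within each harvest's table, per the file headers and values. Per the submitters' processing notes, FastQC, TopHat2, STAR, HTSeq, DESeq2 and hg19 were used; versions and the step each served are not given in the sources used here. In every library 100% of values were whole multiples of 1 step within 0.01, and dividing by it recovered the reads. The design assumed this unit, so a count test stayed an alternative.

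Transcripts were summed to genes by GENCODE 29 identifiers: 181859 of 204940 (88.7%, 97.8% of the value) matched 52994 genes, and 23081 were tested on their own. Columns without a sample numbered 0. limma 3.58.1 in R 4.3.3 (means of 4 groups, eBayes with trend and robust) was run on log2(scaled reads + 1) after keeping genes that reached 10 scaled reads in 3 of 12 libraries or more, with Benjamini-Hochberg adjustment at 0.05. No test crosses levels between tables. The line difference used 8 group means over 24 libraries. Samples were grouped by their labels.

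The text names the 10 largest time differences per direction among called genes, the 3 called members of each list with the smallest adjusted p, the fixed set of 11 regulators, and up to 6 called genes of opposite effect; other names were chosen after seeing values. Alternatives used edgeR 4.0.16, DESeq2 1.42.0, limma-voom, TMM, RLE, other pseudocounts and filters, a replicate block, a mitochondrial ribosomal RNA covariate, GC trend removal and left-out libraries. Fits were tested on simulated data. Figures were drawn with matplotlib 3.10.9 and tables made with pandas 2.3.3, scipy 1.17.1 and numpy 2.4.6 under Python 3.11.15. Promoters are RefSeq's (GRCh38.p14), matched by symbol; SLC7A11 and OASL are named only. Some results are not reported here. The repeat table of the 96 h harvest was not used here. Counts of reads carry counting error only within a library.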

Additional observations from a re-analysis of the deposited data

Results flagged for a closer look

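For 2 genes the DAC effect in UCSD-AML1 differed between the harvests by the test of the difference itself. CHAC1 had −4.21 (log2, 144 h effect minus 96 h effect; limma, adjusted p = 0.000223), with the 3 treated libraries below the 3 untreated ones at 144 h and above them at 96 h. SLC7A11 had −2.97 (limma, adjusted p = 0.0132), with treated libraries below untreated ones at both harvests. For 3 genes the time difference also differed between the lines, UCSD-AML1 minus ELF-153, by its own test: CHAC1 by −4.52, RSAD2 by −2.28 and AC005394.2 by −3.61 (limma, adjusted p = 0.000501, 0.0279 and 0.0403). No cause of these differences was tested.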

How the results depend on the processing

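The time difference (0 genes higher, 2 lower) gave 39 and 97 with DESeq2, 2 and 14 with a pseudocount of 8, 1 and 4 with a filter of 1 read, 7 and 12 over 24 libraries, 22 and 255 with the replicate block, 6 and 66 with the GC trend removed, and 77 and 741 without both replicates 3 at 144 h. It gave 4 lower with the mitochondrial ribosomal RNA covariate and 1 lower without trend and robust. Leaving out 1 library gave 0 to 42 higher and 1 to 272 lower, the highest counts without untreated replicate 3 at 144 h. A filter on a mean of 50 left 2174 genes higher at 144 h and 2114 at 96 h. The line difference (3 genes) gave 6 without both UCSD-AML1 replicates 3 at 144 h and 1 to 8 when 1 library was left out; these were added after seeing the data. CHAC1 kept its call under all 30 alternatives (−4.50 to −3.69, adjusted p up to 0.00233), and SLC7A11 lost it under 7 (−3.31 to −2.50, adjusted p up to 0.0908). Among 68 single genes, 1789 values kept direction and side of the threshold, 216 came to pass it and 7 no longer did. Some of these genes were named because they were called over 24 libraries or without both replicates 3 at 144 h. Their passing there was fixed by that choice, so the 216 do not measure how stable a call is. The sign turned, in genes not called, for ATF4 (0.005 with limma-voom and TMM), DNMT1 (−0.001 with the mitochondrial covariate, −0.055 without retained-intron and processed transcripts), DNMT3B (−0.232 with the covariate, −0.098 with the GC trend removed, −0.132 to 0.44 without 1 library), GATA1 (−0.345 to 0.081 without 1 library) and GATA2 (−0.092 with the covariate, −0.138 with the GC trend removed, −0.018 to 0.182 without 1 library); the causes were not tested.

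The treated and untreated replicates 3 at 144 h varied together, and same-numbered libraries at 96 h did not. Deviations of same-numbered treated and untreated libraries correlated at 0.144, 0.127 and 0.269 at 144 h and −0.066, 0.0239 and −0.0492 at 96 h. Pairs of a replicate 3 with another number at 144 h gave −0.171, −0.203, −0.212 and −0.156. Untreated replicate 2 at 144 h correlated best with treated replicate 1 (0.152). The main fit has no replicate block, and with it the counts rose to 22 and 255, so they depend on that choice. A fit on transcripts found in both tables was not run, since the tables hold the same 204940 transcripts. With 3 libraries a group, the 95% interval of a time difference had a median half-width of 0.944 log2 units.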
